A study of Mus musculus with 9 samples.

Results

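The Rab genes encode small GTPases of vesicle traffic, and their expression was read in 9 RNA libraries of mouse leukemia cells. Members were the rows of the expression table whose gene name is Rab followed by a number and, in some, a letter from a to d. This gave 59 genes of 55536 in the table. Rab-like genes with other names, such as Rabl2 and Ift27, were kept apart. By their best known place of work the members were set in 6 role groups: 16 of early and recycling endosomes, 13 of late endosomes, lysosomes and lysosome-related organelles, 12 of the endoplasmic reticulum and Golgi, 13 of secretion and transport to the plasma membrane, 3 linked to the cilium, and 2 with a SOCS box.

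A Rab protein switches between a GTP-bound form that sits on a membrane and a GDP-bound form that is held in the cytosol. Exchange factors load GTP, GTPase activating proteins end the active state, and the active form recruits effectors such as motors, tethers and lipid enzymes, so that each Rab gives its compartment an identity. In myeloid cells Rab proteins serve the release of granules, the maturation of phagosomes and the recycling of receptors.

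The libraries came from GFP+ acute myeloid leukemia (AML) cells that carried MLL-AF9 from a retrovirus, and all cells and recipients were C57BL/6J. The cells (1000000 per mouse) went into recipients aged 6 to 8 weeks that were not irradiated, and on day 18 GFP+ cells were sorted from bone marrow by surface c-kit. The 3 groups, of 3 libraries each, were AML-WT cells without surface c-kit (WT c-kit-), AML-WT cells with it (WT c-kit+) and AML-IRF7-/- cells with it (IRF7-/- c-kit+). The genotype label of both WT groups is control-GFP overexpression, and that of the third is IRF7-/--GFP overexpression. The knockout, as the methods give it, replaced exons 2 and 3 of Irf7 with a beta-geo cassette. The labels do not say whether libraries of a group came from separate mice, so p-values measure only the spread between these samples, which may be technical.

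Irf7 was read first as a check of the labels. Its level was 23.5, 22.3 and 32.3 TPM in WT c-kit-, 5.31, 3.91 and 3.36 TPM in WT c-kit+, then 12.8, 5.97 and 7.95 TPM in the third group (TPM, transcripts per 1000000, is scaled by gene length and library total). Every library of the third group was above every WT c-kit+ library. Since this goes against a knockout, they are named by their label below, and any direction taken from them depends on it. The table gives 1 value per gene, so reads from exons outside the replaced part cannot be told apart from the rest, and the check is limited to that. Kit was 0.52 to 3.03 TPM in WT c-kit-, 50.7 to 58.5 TPM in WT c-kit+ and 70.3 to 85.7 TPM in the labelled IRF7-/- c-kit+ libraries, as sorted. The values keep no read number, so the depth is unknown. The 10 most abundant genes held 13.1% to 17.3% of the total in WT c-kit+ and 9.39% to 10.3% in the other 6 libraries. All 9 libraries correlated best with a library of their own group. In bulk RNA, fewer cells of a type and less RNA per cell cannot be told apart. Summed over 8 markers, mature neutrophil genes were at 6486 to 31920 TPM in WT c-kit-, 57820 to 112900 TPM in WT c-kit+ and 1708 to 2683 TPM in the labelled IRF7-/- c-kit+ libraries. Over 7 monocyte and macrophage markers the sums were 4154 to 5216, 2110 to 2432 and 2535 to 3121 TPM in the same order, and over 4 mast cell and basophil markers they were 20.0 to 45.1, 37.2 to 78.4 and 66.0 to 84.3 TPM. Over 5 markers each, stroma and endothelium summed to 84.8 to 100.5, 38.8 to 48.7 and 94.2 to 107.3 TPM, of which Pecam1, which myeloid cells also express, gave 83.7 to 99.2, 37.9 to 47.2 and 92.1 to 105.6 TPM and the other 4 at most 1.60 TPM each. Megakaryocytes and platelets summed to 0.80 to 2.57, 9.69 to 11.8 and 9.26 to 13.01 TPM, erythroid cells to between 2.53 and 9.75 TPM over all libraries, and T and B lymphocytes to between 0.48 and 1.90 TPM. Of the platelet markers, Gp9 gave most of the sums of the c-kit+ groups. It was at 0.36 to 0.53 TPM in WT c-kit-, 6.72 to 9.24 TPM in WT c-kit+ and 4.99 to 9.60 TPM in the labelled libraries. The others were at most 3.55 TPM each. Pf4 was at 0 in every WT c-kit- library and Ppbp in every WT c-kit+ library. Within WT c-kit-, replicate 3 stood apart in neutrophil markers such as S100a9 (15307 against 2979 and 3702 TPM). It did not stand apart in Mmp8 (84.0 against 85.1 and 54.8 TPM). Kit was also highest in that library, at 3.03 against 0.52 and 1.19 TPM in replicates 1 and 2.

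Sequences are given for the member that fell most and carries an interferon-type element at its start, for a pair of members with an E-box, and for Rab34, which the study assayed. Promoters from RefSeq (GRCm38.p6, 250 bases before to 50 after a start site) matched 48 of the 59 members. They were searched on both strands for the core of the interferon response element, GAAANNGAAA, for the E-box CACGTG and for the PU.1-type ETS site GAGGAAGT, none of which is contained in another. The interferon core was in 1 of the 48 members, Rab19, and in 3.99% of all 27025 genes with a promoter. The E-box was in 6 members (Rab20, Rab21, Rab23, Rab24, Rab27a and Rab5a) and in 8.09% of all genes. The ETS site was in Rab2b and Rab32 and in 3.69% of all genes. A match describes these letters only. In the following lines of 30 bases, 5′ to 3′ on the strand of the gene, capitals mark the matches. In Rab19 they are 2 overlapping matches to the interferon core on the other strand, within an annotated exon and outside the coding sequence, and the RefSeq start site lies 178 bases inside the GENCODE gene. In Rab20 and Rab23 the capitals mark the E-box. That of Rab20 also lies within an annotated exon and outside the coding sequence, with the RefSeq start site 70 bases inside the GENCODE gene. That of Rab23 lies outside the GENCODE gene.
Rab19, chr6:39381336-39381365, plus strand: gcccttgTTTCCCTTTCGCTTTCtctgtcc
Rab20, chr8:11478669-11478698, minus strand: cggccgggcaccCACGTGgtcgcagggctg
Rab23, chr1:33719666-33719695, plus strand: cttcagtgctacCACGTGagtctcaggtgg
The primers of the study for Rab34 were placed on GENCODE M21 (GRCm38) to show which exons of the gene its assay read. The forward primer matched chr11:78191219-78191240, in coding exon 8 of the transcript Rab34-201, and the reverse primer matched the other strand at chr11:78191590-78191611, in coding exon 10. The product is 199 bases in 3 transcripts and 175 bases in 1.
Rab34 forward: ctgatgccctcaaggagaacga
Rab34 reverse: gctgccacacggaagaagaatt

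Rab44 was the most abundant Rab gene in every group. It encodes a large Rab with EF-hands that is linked to degranulation of mast cells, and it lies at chr17:29114145-29148980 on the plus strand with no exon shared with another gene. Its level was 370.4, 340.3 and 338 TPM in WT c-kit-, 934, 874 and 872 TPM in WT c-kit+, then 1112, 956 and 1094 TPM in the labelled IRF7-/- c-kit+ libraries. The groups did not overlap, and the c-kit+ groups were well above WT c-kit-. Rab44 made up 11.9% ± 0.61 (SD, n = 3) of the summed TPM of the 59 genes in WT c-kit-, 28.2% ± 0.76 in WT c-kit+ and 32.6% ± 2.05 in the labelled IRF7-/- c-kit+ libraries. The whole sum moved little, with 2951 ± 87.1, 3168 ± 129 and 3232 ± 69.3 TPM (SD, n = 3). Without Rab44 the sum in TPM went the other way. It was then 2601 ± 83.9 TPM in WT c-kit-, 2275 ± 104 TPM in WT c-kit+ and 2178 ± 36.7 TPM in the labelled IRF7-/- c-kit+ libraries. WT c-kit- lay above both c-kit+ groups in each of its libraries, with 2511 TPM or more against 2352 TPM or less. This holds on the TPM scale as given. The most abundant genes took a larger share in WT c-kit+, and the sum without Rab44 was not rescaled for them.

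**Figure D1:**
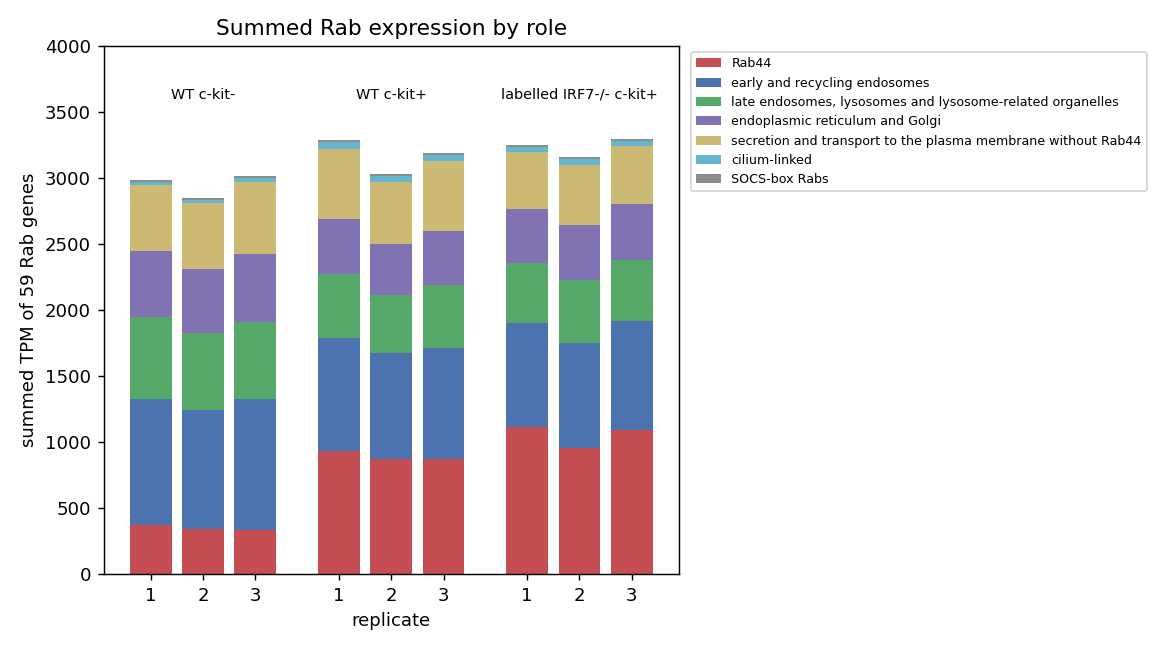
Stacked bars of the summed TPM of the 59 Rab genes in each of 9 libraries, with Rab44 apart and the other members by role; the vertical axis starts at 0. Rab44 takes 338 to 370.4 TPM in WT c-kit- and 872 to 1112 TPM in the 6 c-kit+ libraries, while each library sums to between 2852 and 3292 TPM.

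The next most abundant genes served the main routes of the endocytic and secretory pathways. Rab7, which drives late endosomes to fuse with lysosomes, was at 319, 294 and 297 TPM in WT c-kit-, 227, 203 and 232 TPM in WT c-kit+, then 241, 252 and 248 TPM in the labelled IRF7-/- c-kit+ libraries. WT c-kit- was the highest group and the c-kit+ groups did not overlap each other, though they lay close. Rab5c, a Rab of early endosomes, was nearly even, at 189, 179.5 and 189.7 TPM, then 168.5, 163 and 174 TPM, then 176, 179 and 177 TPM in the same order of groups. Rab27a, which docks secretory granules at the plasma membrane, was at 164, 166 and 185 TPM in WT c-kit-, 202, 178 and 189.96 TPM in WT c-kit+, then 148, 156 and 149 TPM in the labelled IRF7-/- c-kit+ libraries. Its lowest group was the last, and the WT groups overlapped. Rab1b, which acts between the endoplasmic reticulum and the Golgi, was at 156, 147 and 152 TPM, then 125, 120.5 and 131 TPM, then 155, 158 and 166 TPM, so that WT c-kit+ stood below both other groups.

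At the other end, 14 of the 59 genes were below 1 TPM in at least 7 of the 9 libraries. Rab27b, Rab9b, Rab3c, Rab39b and Rab15 never passed 0.26 TPM, and Rab3b, Rab38, Rab42 and Rab33a never passed 0.50 TPM. Close relatives differed much in level. Rab27a made up at least 99.9% of the pair Rab27a and Rab27b in each library, Rab32 at least 99.4% of Rab32 and Rab38 (a pair that serves lysosome-related organelles), and Rab6a at least 97.6% of Rab6a and Rab6b. The Rab11 pair was more even, with Rab11a at 41.2% to 51.2%. In a pair of members 1 labelled library stood apart from the others of its group. Rab40b, whose product joins a ubiquitin ligase through a SOCS box, was at 2.47 TPM in replicate 1 of the labelled IRF7-/- c-kit+ libraries and at 0.17 and 0.06 TPM in the others of that group, with at most 0.14 TPM in the remaining 6 libraries, and it was too low to be tested. Rab19 was at 3.78 TPM in replicate 2 of the labelled IRF7-/- c-kit+ libraries and at 0.66 and 0.59 TPM in the others, while the WT c-kit- libraries were higher still, at 6.64 TPM or more.

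**Figure D2:**
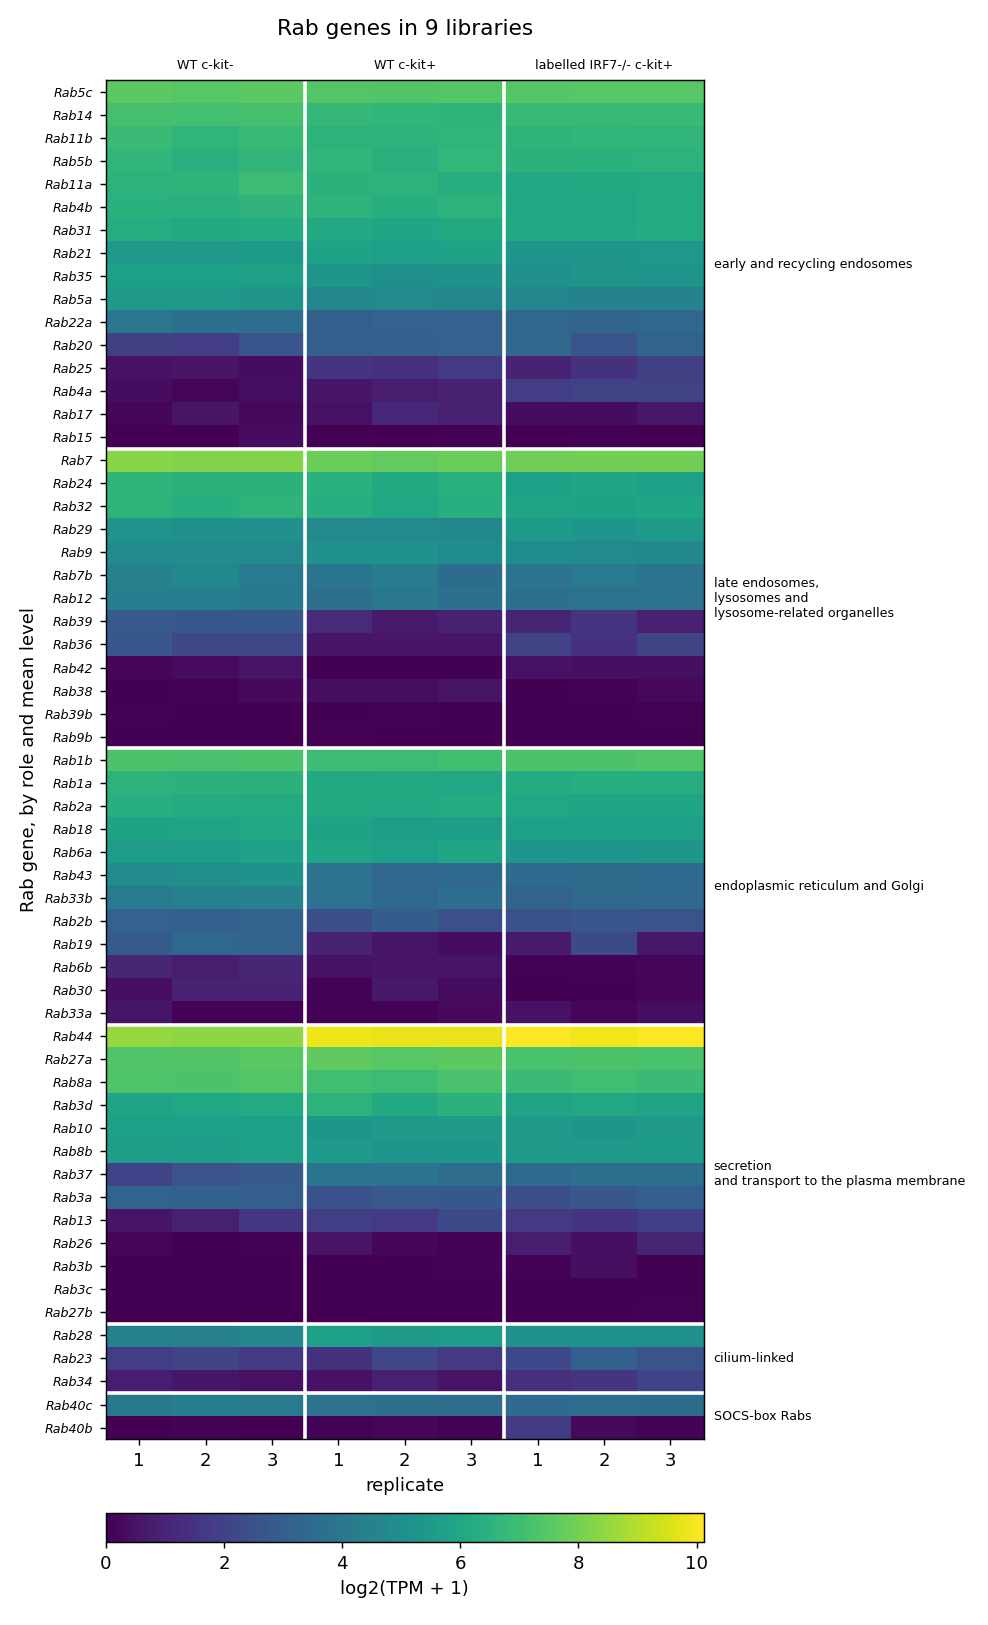
Heat map of log2(TPM + 1) of the 59 Rab genes (rows, by role and mean level) in 9 libraries (columns, 3 per group). Rab44 is the brightest row, at 338 to 1112 TPM, and each of the 4 larger role groups also holds members that did not reach 1 TPM in 3 libraries.

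Each pair of groups was compared with limma on log2(TPM + 1), over all genes that reached 1 TPM in 3 or more of the 6 libraries. Both thresholds means a log2 fold change whose size is 1 or more and an adjusted p (Benjamini-Hochberg, all genes tested) under 0.05. Adding 1 to the TPM makes the fold change of a low gene too small, SE is its standard error, and an adjusted p below is from limma. An exact permutation test of 3 libraries against 3 cannot go below p = 0.1, so no single gene can pass it. The comparisons share libraries, since each group enters a pair of them, and are given side by side without a test of their likeness.

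The first comparison asked how the Rab genes differ between c-kit+ and c-kit- cells of the same leukemia. In WT c-kit+ against WT c-kit-, 43 members were tested. Both thresholds were passed upward by 4 of them (9.30%, against 4.83% of all 13261 genes tested) and downward by 4 (9.30%, against 9.61% of all genes). The higher ones were Rab44, Rab37, Rab25 and Rab28, and the lower ones Rab19, Rab39, Rab36 and Rab43. By the adjusted p alone 7 members were higher (16.3%, against 14.0%) and 20 were lower (46.5%, against 27.6%). The median log2 fold change was −0.26 over the members and −0.08 over all genes. This split depends on scaling: setting the libraries to equal medians raised every value in this comparison by 0.16, and 11 members were then higher and 13 lower. The high share of a few abundant genes in WT c-kit+ moves with these small falls, and its part in them was not tested.

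Rab44 and Rab37 had the largest rises. Rab44 rose with a log2 fold change of 1.35 (SE 0.067, adjusted p = 2.72e-05). Rab37, found on secretory granules of mast cells, was at 3.13, 4.94 and 6.52 TPM in WT c-kit-, 13.9, 14.0 and 11.4 TPM in WT c-kit+, then 9.85, 11.7 and 11.6 TPM in the labelled IRF7-/- c-kit+ libraries. The c-kit+ libraries were all above the c-kit- ones, and the log2 fold change was 1.30 (SE 0.23, adjusted p = 0.00411). Of the other 7 members tested in the secretion group, Rab8a, Rab8b, Rab10 and Rab3a fell by the adjusted p alone, and Rab13 rose. The granule genes Rab27a (log2 fold change 0.15, adjusted p = 0.166) and Rab3d (0.35, adjusted p = 0.0637) did not pass, and the median of the group was 0.15. Rab13, known from traffic to cell junctions, was at 0.44, 0.86 and 2.07 TPM in WT c-kit- and 2.69, 2.32 and 3.86 TPM in WT c-kit+, with 2.23, 1.97 and 2.68 TPM in the labelled IRF7-/- c-kit+ libraries. The WT groups did not overlap, and Rab13 passed the filter through WT c-kit+, since only 1 WT c-kit- library reached 1 TPM. Its log2 fold change was 0.95 (adjusted p = 0.0447). The call was lost when any 1 library other than WT c-kit- replicate 3 was left out (adjusted p from 0.0635 to 0.13). The marker sums of mast cells and basophils overlapped between these groups, though Mcpt8 and Ms4a2 were higher in every WT c-kit+ library than in WT c-kit-. Those of mature neutrophils did not overlap, with the higher sums in WT c-kit+. This held singly for S100a8, S100a9, Ngp and Camp, while Ltf and Lcn2 overlapped. Mmp8 (54.8 to 85.1 against 2.63 to 7.40 TPM) and Retnlg (18.3 to 117.3 against 4.98 to 14.2 TPM) were lower in WT c-kit+. The part of these markers in the rise of Rab44 and Rab37 was not tested.

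Among early and recycling endosome genes 3 rose and 4 fell by the adjusted p alone, of 13 tested, beside 14.0% of all genes higher and 27.6% lower. Rab25, an epithelial relative of Rab11, rose from 0.41, 0.45 and 0.25 TPM to 1.97, 1.59 and 2.33 TPM, with 0.96, 1.72 and 2.77 TPM in the labelled IRF7-/- c-kit+ libraries. Its log2 fold change was 1.11 (SE 0.16, adjusted p = 0.00201), and it passed the filter on low values through WT c-kit+ alone, so that a difference was built in. Rab20, which takes part in phagosome maturation, was at 2.74, 2.54 and 5.41 TPM in WT c-kit- and 7.43, 7.89 and 8.01 TPM in WT c-kit+, and at 9.20, 5.25 and 8.32 TPM in the labelled IRF7-/- c-kit+ libraries. It rose with a log2 fold change of 0.997 (SE 0.24, adjusted p = 0.0148). Of its annotated exon bases 25.6% are shared with E230013L22Rik on the other strand, which was at most 0.51 TPM in any library. Rab5a, the classic regulator of early endosome fusion, went from 41.7, 42.0 and 36.4 TPM to 24.7, 26.7 and 24.2 TPM, with 23.6, 22.3 and 21.7 TPM in the labelled IRF7-/- c-kit+ libraries, and its log2 fold change of −0.64 (SE 0.083, adjusted p = 0.00111) was the largest fall in its role group. WT c-kit- was above all other libraries for Rab5a.

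The larger falls were of low genes from late endosomes and the Golgi. Rab19, a Golgi-associated Rab, was at 6.64, 9.55 and 8.25 TPM in WT c-kit- and 1.02, 0.47 and 0.25 TPM in WT c-kit+, with a log2 fold change of −2.55 (SE 0.22, adjusted p = 0.000199), the largest in size of any member. Rab39, found on late endosomes and lysosomes of phagocytes, was at 6.38, 5.92 and 5.92 TPM against 1.36, 0.66 and 0.90 TPM (log2 fold change −1.86, SE 0.16, adjusted p = 0.000214), and at 1.04, 1.86 and 0.92 TPM in the labelled IRF7-/- c-kit+ libraries. Rab36, which shares the effector RILP with Rab7 and Rab34, was at 5.70, 3.47 and 3.55 TPM against 0.53, 0.52 and 0.49 TPM (log2 fold change −1.77, SE 0.19, adjusted p = 0.000534). Rab36 passed the filter through WT c-kit- alone. Rab19 and Rab39 reached 1 TPM in all 3 WT c-kit- libraries but in only 1 WT c-kit+ library each. They too were thus tested through WT c-kit-, and a difference was in part built in for all 3 genes. For each of these the WT groups were far apart and did not overlap.

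Rab43, which acts at the Golgi, fell from 28.9, 31.2 and 36.2 TPM to 13.03, 9.19 and 10.1 TPM, with 10.6, 10.2 and 10.6 TPM in the labelled IRF7-/- c-kit+ libraries. The log2 fold change was −1.496 (SE 0.15, adjusted p = 0.00032). Of its exon bases 75.4% also belong to Gm45140 on the same strand, so the split of reads between them is uncertain. Gm45140 was at 1.09 to 1.57 TPM in WT c-kit- and 0.40 to 0.57 TPM in the other libraries. Rab33b, a Golgi Rab that binds an autophagy factor, went from 17.5, 21.03 and 21.02 TPM to 13.1, 9.58 and 11.5 TPM (log2 fold change −0.76, SE 0.14, adjusted p = 0.00457). Of 9 endoplasmic reticulum and Golgi genes tested, 6 fell by the adjusted p alone and 0 rose, with a median of −0.40, beside 27.6% of all genes lower and 14.0% higher. Rab2b, which is among those that fell, shares 59.3% of its exon bases with a gene on the other strand, Gm43766 or Tox4. Tox4 was at 25.1 to 38.95 TPM, with its higher levels in WT c-kit-. By an unadjusted p the members as a whole split into 9 higher and 24 lower. Of 9 late endosome and lysosome genes, 5 fell and 0 rose, with a median of −0.43, among them Rab7 (log2 fold change −0.46, SE 0.071, adjusted p = 0.00263). These counts stand on the scale as given, on which 20 members fell, against 13 with equal library medians. The summed monocyte and macrophage markers were also lower in every WT c-kit+ library than in any of WT c-kit-. Of these markers C1qa and C1qb went the other way (0.43 to 1.05 TPM in WT c-kit- against 2.21 to 4.96 TPM in WT c-kit+). The part of these markers in the falls was not tested.

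Of the cilium-linked genes, Rab28 rose. Its product works at the base of cilia, and its level was 20.7, 20.2 and 24.7 TPM in WT c-kit-, 51.8, 42.2 and 45.8 TPM in WT c-kit+, then 33.1, 33.8 and 32.8 TPM in the labelled IRF7-/- c-kit+ libraries. The 3 groups were fully apart, with the labelled group between the others. The log2 fold change between the WT groups was 1.06 (SE 0.11, adjusted p = 0.000439), and without WT c-kit+ replicate 1 it was 0.98, just under the fold threshold.

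**Figure D3:**
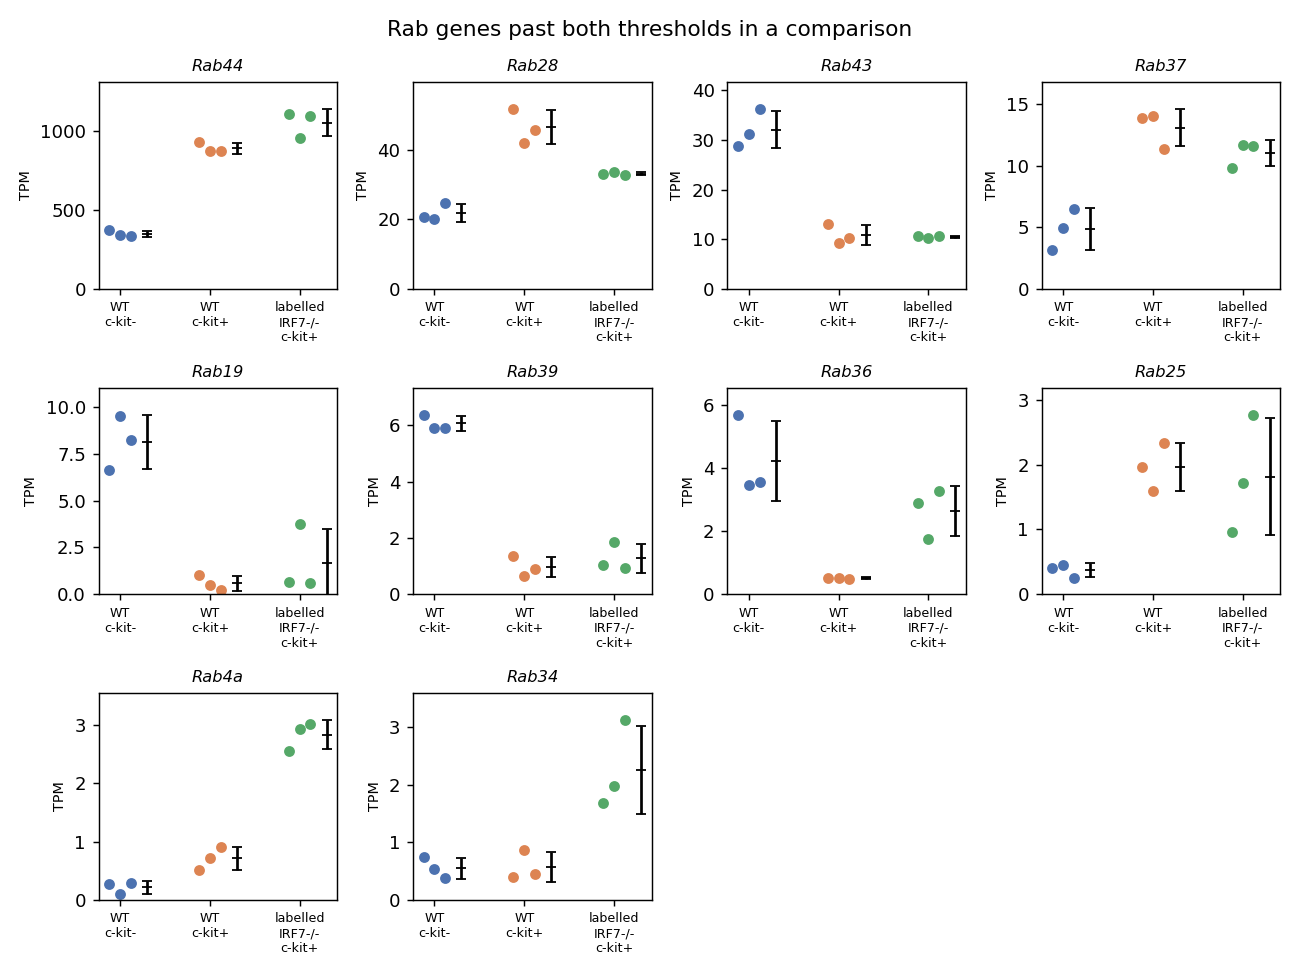
TPM per library (points) with mean and SD beside them (black, n = 3) of the 10 Rab genes past both thresholds in at least 1 comparison, each panel on its own axis from 0; the SD bar of Rab19 in the labelled IRF7-/- c-kit+ libraries reaches below 0 and is clipped there. Rab44 is at 338 to 1112 TPM, whereas Rab34, Rab4a and Rab25 stay at or below 3.12 TPM in every library.

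The next comparison asked how c-kit+ cells of the knockout label differ from c-kit+ cells of WT leukemia. In the labelled IRF7-/- c-kit+ libraries against WT c-kit+, 44 members were tested. Both thresholds were passed upward by 3 of them (6.82%, against 6.30% of all 13238 genes tested) and downward by 0 (0%, against 5.39%), also by an unadjusted p under 0.05 in limma with the same fold threshold. By the adjusted p alone 7 members were higher (15.9%, against 31.9%) and 9 were lower (20.5%, against 16.1%). The median log2 fold change was −0.03 over the members and 0.12 over all genes, and 31 of the 44 members lay below the median of all genes. Equal library medians lowered every value by 0.082, after which 6 members were higher and 12 lower. Mature neutrophil markers were far lower in the labelled libraries, and Pecam1 was higher, with 92.1 TPM or more against 47.2 TPM or less. Of the other stroma and endothelium markers Cxcl12 was also higher (1.2 to 1.6 against 0.05 to 0.44 TPM), Col1a1 was lower (0.25 to 0.32 against 0.63 to 0.72 TPM), and Col1a2 and Cdh5 overlapped. Their part in what follows was not tested.

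The members past both thresholds were low genes that passed the filter through the labelled libraries alone, so that a difference was built in. Rab36 was at 0.53, 0.52 and 0.49 TPM in WT c-kit+ but 2.89, 1.75 and 3.29 TPM in the labelled IRF7-/- c-kit+ libraries (log2 fold change 1.24, SE 0.19, adjusted p = 0.00267). All 3 labelled libraries lay below the WT c-kit- libraries, at 3.47 TPM or more. Rab4a, which returns receptors quickly from early endosomes to the surface, was at 0.27, 0.09 and 0.29 TPM in WT c-kit-, 0.51, 0.72 and 0.90 TPM in WT c-kit+, then 2.56, 2.93 and 3.03 TPM in the labelled IRF7-/- c-kit+ libraries. The labelled group was the highest with little spread (log2 fold change 1.17, SE 0.15, adjusted p = 0.00123).

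Rab34, which the study assayed, moves lysosomes toward the Golgi and takes part in cilium formation, and lies at chr11:78188430-78192193 on the plus strand. It was at 0.74, 0.53 and 0.37 TPM in WT c-kit-, 0.39, 0.86 and 0.44 TPM in WT c-kit+, then 1.68, 1.97 and 3.12 TPM in the labelled IRF7-/- c-kit+ libraries. The WT groups overlapped and the labelled group was above both. Its log2 fold change was 1.05 (SE 0.22, adjusted p = 0.00791), close to the fold threshold. It was under 1 when WT c-kit+ replicate 1 (0.97) or 3 (0.99) or labelled replicate 3 (0.86) was left out, and with equal library medians (0.96), while its adjusted p stayed under 0.05. With a filter of 5 TPM none of these 3 genes was tested.

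The paralog Rab4b, also a recycling Rab and far more abundant, moved the other way from Rab4a. It was at 81.1 to 93.6 TPM in WT c-kit+ and 66.2 to 73.97 TPM in the labelled IRF7-/- c-kit+ libraries and fell by 0.36 on the log2 scale (SE 0.078, adjusted p = 0.00917). Rab4a thus made up 3.72% to 4.20% of the pair in the labelled libraries and at most 0.97% in the other 6. For Rab4b, 65.0% of its exon bases are shared with Gm21983, which was at most 0.12 TPM.

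Members past the adjusted p alone came from several compartments. Rab29, which recruits the kinase LRRK2 to membranes, was at 36.9, 33.2 and 33.9 TPM in WT c-kit-, 26.1, 26.02 and 25.6 TPM in WT c-kit+, then 45.3, 38.7 and 43.0 TPM in the labelled IRF7-/- c-kit+ libraries. The groups were fully apart, and the log2 fold change of 0.68 (SE 0.073, adjusted p = 0.000682) was the largest rise among members over 10 TPM in both groups. Rab23, an inhibitor of Hedgehog signaling, was at 2.59, 3.18 and 2.28 TPM in WT c-kit-, 1.79, 3.40 and 2.18 TPM in WT c-kit+, then 3.72, 7.52 and 5.05 TPM in the labelled IRF7-/- c-kit+ libraries. The labelled libraries were above the rest (log2 fold change 0.88, SE 0.26, adjusted p = 0.0314), but the adjusted p was 0.0721 to 0.0957 without WT c-kit+ replicate 1 or 3 or labelled replicate 2 or 3. Rab1b rose with a log2 fold change of 0.35 (SE 0.055, adjusted p = 0.00282).

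Rab44 was also higher by the adjusted p alone (log2 fold change 0.24, SE 0.077, adjusted p = 0.042), 0.12 above the median of all genes. This call was lost with equal library medians (0.16, adjusted p = 0.168) and without any 1 library other than labelled replicate 2 (adjusted p from 0.0537 to 0.144). Of the members that fell, Rab6a, which serves traffic within and out of the Golgi, changed most. It was at 45.6, 47.5 and 54.2 TPM in WT c-kit-, 62.9, 51.1 and 61.9 TPM in WT c-kit+, then 37.6, 39.3 and 39.9 TPM in the labelled IRF7-/- c-kit+ libraries. The labelled libraries were the lowest (log2 fold change −0.57, SE 0.090, adjusted p = 0.00263). Mrpl48, at 31.7 to 40.7 TPM, shares 19.0% of the exon bases of Rab6a on the opposite strand, and the sources used here do not say if strand was used.

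The others that fell were the early and recycling endosome genes Rab21, Rab4b and Rab11a, the lysosome-linked Rab24 and Rab32, the granule genes Rab27a and Rab3d, and the cilium-linked Rab28, with log2 fold changes from −0.52 to −0.29. For Rab27a it was −0.32 (SE 0.061, adjusted p = 0.00544), and for Rab28 −0.47 (SE 0.083, adjusted p = 0.00429). Rab24 shares 62.4% of its exon bases with Prelid1 on the other strand, which was at 166 to 254 TPM. Rab7, Rab5c, Rab19, Rab39, Rab43, Rab37, Rab25, Rab20, Rab13, Rab33b and Rab5a did not pass the adjusted p or, for Rab19, the filter. The 95% interval of the log2 fold change was −0.34 to 0.29 for Rab43, −0.50 to 0.055 for Rab37 and −0.33 to 0.72 for Rab39, so that changes within those bounds could not be told from 0.

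The last comparison set the labelled IRF7-/- c-kit+ libraries against WT c-kit-, which differ in both the sort and the label, so these cannot be told apart. Of 44 members tested, 4 passed both thresholds upward (9.09%, against 8.40% of all 13510 genes tested) and 3 downward (6.82%, against 11.9%). By the adjusted p alone 8 were higher (18.2%, against 30.7%) and 25 lower (56.8%, against 28.7%). Without labelled replicate 3 the number higher by the adjusted p alone was 5. The median log2 fold change was −0.27 over the members and 0.03 over all genes, with 34 of 44 members below the latter.

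The higher members were Rab4a (log2 fold change 1.66, SE 0.14, adjusted p = 0.000119), Rab44 (1.59, SE 0.076, adjusted p = 1.3e-05), Rab37 (1.08, SE 0.22, adjusted p = 0.00553) and Rab34 (1.06, SE 0.20, adjusted p = 0.00418). Rab4a and Rab34 passed the filter through the labelled libraries alone. Rab37 was at 0.85 without WT c-kit- replicate 1, under the fold threshold, as was Rab34 without WT c-kit- replicate 3 (0.97) or labelled replicate 3 (0.87). The summed mast cell and basophil markers, at most 45.1 TPM in WT c-kit- and at least 66.0 TPM in the labelled libraries, moved with Rab44 and Rab37. Of these markers Mcpt8 (10.6 to 17.9 against 38.5 to 44.7 TPM) and Ms4a2 (1.51 to 3.58 against 5.04 to 8.46 TPM) were higher without overlap. Cpa3 and Prss34 overlapped. The part of these markers was not tested. All 3 tested cilium-linked genes were higher by the adjusted p alone, beside 30.7% of all genes. Besides Rab34, these were Rab28, by 0.59 (SE 0.091, adjusted p = 0.00155), and Rab23, by 0.77 (SE 0.23, adjusted p = 0.0263). The call of Rab23 was lost in some settings (adjusted p up to 0.075). Rab20, at 0.94 (SE 0.29, adjusted p = 0.0281), overlapped between these groups, and its adjusted p was 0.0822 to 0.0902 without WT c-kit- replicate 1 or 2 or labelled replicate 1 or 3.

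The lower members were again of late endosomes and the Golgi. Rab19 was at 0.66, 3.78 and 0.59 TPM in the labelled libraries against 6.64 or more in WT c-kit- (log2 fold change −1.96, SE 0.43, adjusted p = 0.00708), and without labelled replicate 2 it was −2.48. Rab39 was at −1.66 (SE 0.18, adjusted p = 0.000311) and Rab43 at −1.53 (SE 0.10, adjusted p = 4e-05). Rab19 reached 1 TPM in 1 and Rab39 in 2 of the labelled libraries, so both passed the filter through WT c-kit-. Rab33b, at 8.37, 10.2 and 9.95 TPM in the labelled libraries and 17.5 TPM or more in WT c-kit-, was just short of the fold threshold, at −0.99 (SE 0.12, adjusted p = 0.000477). Gm38160, at most 0.42 TPM, shares 18.7% of its exon bases on the other strand. Rab5a was at −0.80 (SE 0.081, adjusted p = 0.000239). By role, 8 of 9 endoplasmic reticulum and Golgi genes fell by the adjusted p alone and 0 rose, beside 28.7% and 30.7% of all genes, and of 9 late endosome and lysosome genes 6 fell and 1, Rab29, rose (log2 fold change 0.28, SE 0.081, adjusted p = 0.0222), a call lost without WT c-kit- replicate 2 or 3 or labelled replicate 1 or 3 (adjusted p from 0.056 to 0.0795). Rab2b, with the exon overlap given above, was among the endoplasmic reticulum and Golgi genes that fell. By an unadjusted p under 0.05 in limma the members as a whole split into 9 higher and 26 lower. Rab36 had a log2 fold change of −0.52 with an adjusted p of 0.0975 and is not called. The summed mature neutrophil markers were also lower in the labelled libraries without overlap (2683 TPM or less against 6486 TPM or more). So were the summed monocyte and macrophage markers (3121 TPM or less against 4154 TPM or more). Of the latter, Csf1r, Ccr2 and F13a1 were each lower without overlap, and Ly6c2 and Adgre1 overlapped. C1qa and C1qb went the other way, at 0.97 to 2.67 TPM in the labelled libraries against 0.43 to 1.05 TPM, each without overlap. The part of these markers in the falls was not tested.

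**Figure D4:**
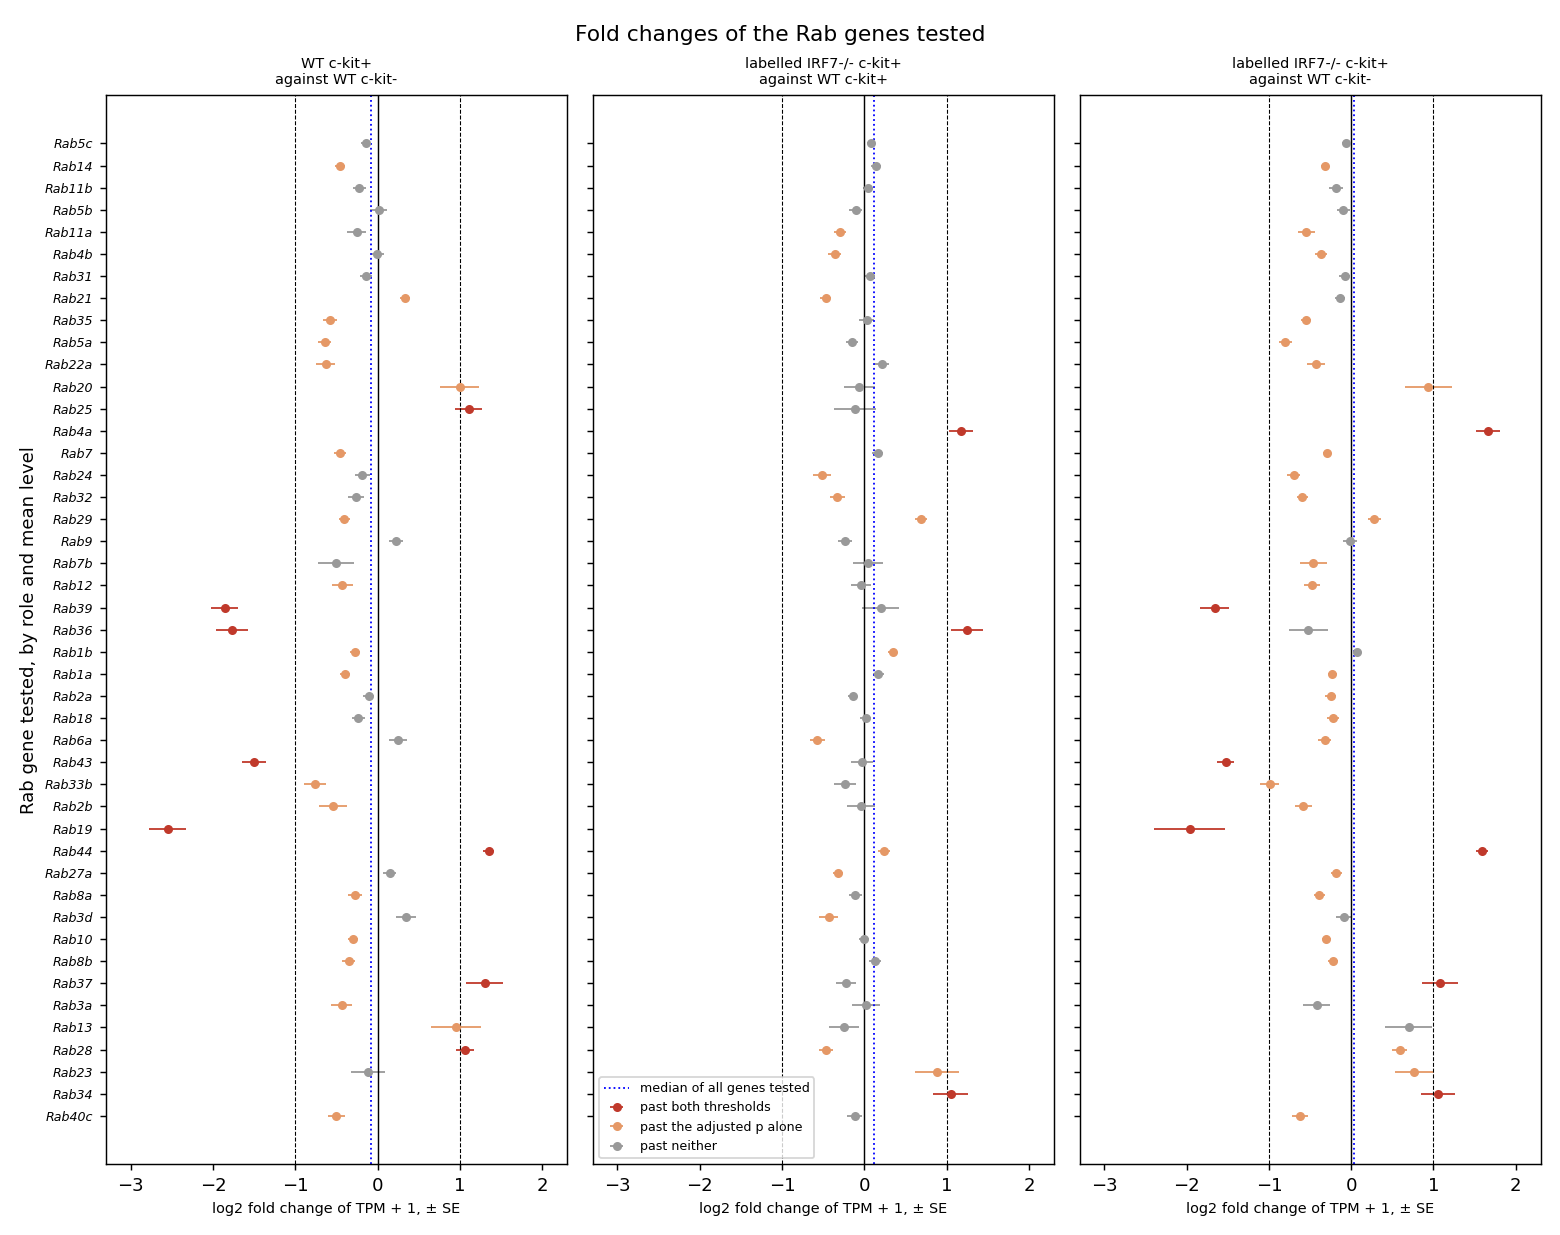
Log2 fold change of TPM + 1 with SE for the Rab genes tested, 1 panel per comparison, rows by role and mean level; dashed lines mark the fold threshold of 1 and the dotted line the median of all genes tested. Most points sit left of the dotted line (30 of 43, 31 of 44 and 34 of 44 from the left), while Rab44 and Rab37 sit beyond 1 in the left and right panels.

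The partners of the Rab genes were read from 5 lists of 121 genes, of which 107, 104 and 106 were tested in the 3 comparisons in the order above. In WT c-kit+ against WT c-kit-, 4 were higher and 8 lower by both thresholds, and 18 higher and 46 lower by the adjusted p alone, with a median of −0.16. Over all genes these shares were 4.83%, 9.61%, 14.0% and 27.6% in the same order. Of the 8 lower by both thresholds 6 were exchange factors, of 31 tested, whereas by the adjusted p alone 15 exchange factors and 15 effectors were lower. Rin2, an exchange factor for Rab5 proteins, was at 30.1, 26.3 and 25.03 TPM in WT c-kit-, 1.88, 1.99 and 3.04 TPM in WT c-kit+, then 1.08, 2.79 and 0.91 TPM in the labelled IRF7-/- c-kit+ libraries (log2 fold change −3.10, SE 0.16, adjusted p = 3.04e-05, between the WT groups). Both c-kit+ groups were far below WT c-kit-. Tbc1d9, of the family of GTPase activating proteins, was at 8.97, 9.03 and 9.46 TPM against 0.63, 1.34 and 0.99 TPM (log2 fold change −2.37, SE 0.16, adjusted p = 8e-05). It passed the filter through WT c-kit-. Sytl1, an effector of Rab27 proteins in granule release, was at 1.60, 2.97 and 6.79 TPM against 29.9, 27.4 and 30.3 TPM, and at 11.3, 14.3 and 11.3 TPM in the labelled IRF7-/- c-kit+ libraries. It rose with a log2 fold change of 2.81 (SE 0.37, adjusted p = 0.00121), and its 3 groups were fully apart.

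In the labelled IRF7-/- c-kit+ libraries against WT c-kit+, 3 partners were higher and 4 lower by both thresholds, and 18 higher and 26 lower by the adjusted p alone, with a median of 0.0025. Over all genes the shares were 6.30%, 5.39%, 31.9% and 16.1%. Mlph, which links Rab27a to a myosin motor on melanosomes, was at 0, 0 and 0.03 TPM in WT c-kit-, 0.03, 0.09 and 0.09 TPM in WT c-kit+, then 7.05, 4.06 and 6.83 TPM in the labelled IRF7-/- c-kit+ libraries. It was nearly silent outside the labelled libraries (log2 fold change 2.68, SE 0.21, adjusted p = 0.000202) and passed the filter through them alone. Dennd3, an exchange factor for Rab12, was at 14.95, 12.1 and 11.0 TPM in WT c-kit+ but 2.20, 5.12 and 1.99 TPM in the labelled libraries (log2 fold change −1.81, SE 0.28, adjusted p = 0.00273). Tbc1d8, a relative of Tbc1d9, was at 90.8, 62.9 and 79.4 TPM against 28.5, 24.8 and 28.1 TPM (log2 fold change −1.47, SE 0.14, adjusted p = 0.000386). None of these overlapped between the c-kit+ groups. Of 6 Rab-like genes tested, 5 rose by the adjusted p alone and 0 fell, beside 31.9% and 16.1% of all genes.

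Against WT c-kit-, 8 partners were higher and 12 lower in the labelled IRF7-/- c-kit+ libraries by both thresholds, and 23 higher and 51 lower by the adjusted p alone, with a median of −0.28. The shares of all genes were 8.40%, 11.9%, 30.7% and 28.7%. The largest were Rin2 (log2 fold change −3.51, SE 0.26, adjusted p = 6.87e-05), Tbc1d9 (−2.91, SE 0.21, adjusted p = 5.77e-05) and Mlph (2.76, SE 0.21, adjusted p = 6.59e-05). Tbc1d9 passed the filter through WT c-kit- alone and Mlph through the labelled libraries alone. Of the 7 genes listed for lipid anchoring, escort and cytosolic holding of Rab proteins, Rabif among them, 0 passed both thresholds in any comparison. By the adjusted p alone 1 was higher and 5 lower in WT c-kit+ against WT c-kit- (14.0% and 27.6% of all genes). In the labelled libraries 1 was higher and 0 lower against WT c-kit+ (31.9% and 16.1% of all genes). Against WT c-kit- 2 were higher and 4 lower there (30.7% and 28.7% of all genes).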

How the data were processed

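The deposited table holds, for 9 libraries and 55536 genes, TPM that the authors computed, prepared with a TruSeq RNA kit per the labels, although the methods call the assay a microarray. Aligner, quantifier, build and filters are not given in the sources used here. The unit was taken from the sums (987468 to 992231 per library) and the 2-decimal values, and a test planned for counts was not needed. The name of 1 column, WT c-kit+ replicate 3, carries an extra digit. TPM keep no depth, and abundant genes lower all others of a library. limma 3.58.1 (R 4.3.3, lmFit, eBayes with trend) ran on log2(TPM + 1) for each pair of groups on its own 6 libraries, and was tested on simulated data. Positions and overlaps are from GENCODE M21, to which all 59 members matched. Named members were those past both thresholds in any comparison, the 3 largest past the adjusted p alone in each, the 5 most abundant, and Rab34. Others were named after their values were seen. The members and all lists were chosen with earlier results of these data known. Alternatives were no filter or 5 TPM, a pseudocount of 0.1, quantile normalization, equal library medians, all 9 libraries in 1 fit, the replicate number as a block, an unadjusted p and each library left out. Some items are not reported here. Python 3.11.15, pandas 2.3.3 and matplotlib 3.10.9 were used.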

Additional observations from a re-analysis of the deposited data

How the results depend on the processing

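Of the counts of members by threshold and direction, 159 settings stayed within 1.5 times the value given, and 9 did not. In WT c-kit+ against WT c-kit- the 7 higher and 20 lower by the adjusted p alone became 11 and 13, with quantile normalization and with equal library medians alike. With a filter of 5 TPM, which drops low members by construction, the labelled IRF7-/- c-kit+ libraries had 0 members higher by both thresholds and 3 by the adjusted p alone against WT c-kit+, and 2 and 5 against WT c-kit-. Leaving out 1 library at a time gave 5 to 7 members higher by the adjusted p alone in the last comparison. Of the log2 fold changes of named members, 729 kept direction and call, 54 lost the call, 16 gained one and 11 changed sign, all of the last small and not called as given. For Rab23 in WT c-kit+ against WT c-kit- it was 0.017 with quantile normalization, 0.044 with equal medians, and −0.30 to 0.030 with 1 library left out. Rab5c was at 0.016 and 0.011 under these scalings, at −0.024 and −0.0045 in the labelled IRF7-/- c-kit+ libraries against WT c-kit+, and at 0.0095 with equal medians against WT c-kit-. Against WT c-kit+, leaving out 1 library gave −0.20 to 0.15 for Rab20, −0.35 to 0.12 for Rab25 and −0.13 to 0.10 for Rab43. The cause was not tested. Same-numbered libraries had correlations of their deviations from group means from −0.071 to 0.24, under 0.1 in most pairs. Differently numbered ones were at −0.18 to 0.14. In both comparisons with the labelled libraries every same-numbered value was above 0 and most others were below it. These values do not settle whether the numbers pair libraries, since deviations within a group of 3 depend on each other. The main fits treated the libraries as unpaired. With the replicate block, all counts stayed within 1.5 times, Rab13 passed the adjusted p against WT c-kit- in the labelled libraries (0.70, adjusted p = 0.0489) and Rab27a lost it (−0.18, adjusted p = 0.0679). Depth is unknown, so the precision of genes near 1 TPM rests on 3 libraries a group.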
